A study of Homo sapiens with 12 samples.

Results

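The kinesins are the motor proteins that walk along, or take apart, microtubules. Their genes were taken as all platform symbols that begin with KIF followed by a number or by C and a number, read from probe sets that name 1 gene. A total of 42 symbols met that rule, of which KIF25-AS1 is an antisense RNA and was set aside. The remaining 41 kinesin genes, read by 101 probe sets, were described among 18132 genes. By their known roles 13 were grouped as mitotic kinesins, 15 as transport kinesins and 13 as other kinesins. KIF4B and KIF28P had no probe set of their own.

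The study measured RNA of 2 human neuroblastoma cell lines, BE(2)-C and Kelly, on Affymetrix PrimeView arrays. The 4 groups of 3 arrays were BE(2)-C with 1 µM JQ1, BE(2)-C with DMSO, Kelly with 1 µM JQ1 and Kelly with DMSO, each after 24 h. JQ1 occupies the acetyl-lysine pocket of BET bromodomain proteins, and DMSO, its solvent, is the vehicle control. Cells of all groups grew in medium with fetal bovine serum, both lines are known to carry extra copies of the oncogene MYCN, and BE(2)-C is a clonal subline. Whether the 3 replicates were separate cultures is not labelled. The p-values therefore measure only the spread between the arrays of a group, which may be technical.

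Kinesins use ATP to move towards one end of a microtubule or to shorten it. Mitotic kinesins separate the spindle poles, hold and move chromosomes and finish the division of the cell, and their genes are switched on as cells approach mitosis. Transport kinesins carry vesicles, mitochondria and other cargo outwards along axons, and neuroblastoma cells, which derive from the sympathetic lineage, make both kinds.

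Values are log2 intensities of the brightest probe set of a gene, and differences are log2 fold changes (1 is 2-fold). Levels of different genes are not comparable on this scale. The number of arrays limits the precision: errors are standard errors (SE), whose median over all genes was 0.21 for a JQ1 effect in 1 line. Arrays of the same group correlated at 0.952 to 0.996 and arrays of different lines at 0.88 to 0.956, so the ranges overlap. The mean signal of 9 hybridization control probe sets, bacterial transcripts added in a fixed amount, was 10.33 to 12.70 in BE(2)-C JQ1, 9.94 to 12.92 in BE(2)-C DMSO, 12.27 to 13.65 in Kelly JQ1 and 10.70 to 13.26 in Kelly DMSO. The highest control signals, 13.65, 13.26 and 12.92, came from replicate 3 of each Kelly group (JQ1, then DMSO) and from BE(2)-C DMSO replicate 1. All 9 measured neuroblastoma markers lay above the median gene in every group, and none of 5 haematopoietic markers did. Of 5 epithelial markers 1 or 2 did. Of 6 Schwann cell and fibroblast markers, 2 did in BE(2)-C JQ1, 3 in BE(2)-C DMSO, 0 in Kelly JQ1 and 1 in Kelly DMSO.

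Few kinesin genes passed the test of JQ1 against DMSO, and they came from all 3 classes. KIF26B fell in both lines, KIF14 and KIF9 fell in Kelly, and KIF3A rose in both lines. Among 41 kinesins in BE(2)-C, 1 fell and 1 rose by limma at an adjusted p below 0.05. Of all genes 4.69% were called there, 2.51% lower and 2.18% higher. In Kelly 3 fell and 1 rose, against 6.50% of all genes, 4.73% lower and 1.76% higher. Averaged over the lines, KIF26B, KIF14 and KIF9 fell and KIF3A and KIF3C rose, which is 5 of 41 against 11.1% of all genes (7.04% lower and 4.02% higher). These shares are near the background. The call counts moved with single arrays, between 0 and 3 in BE(2)-C and between 2 and 5 in Kelly when 1 array at a time was left out.

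**Figure D1:**
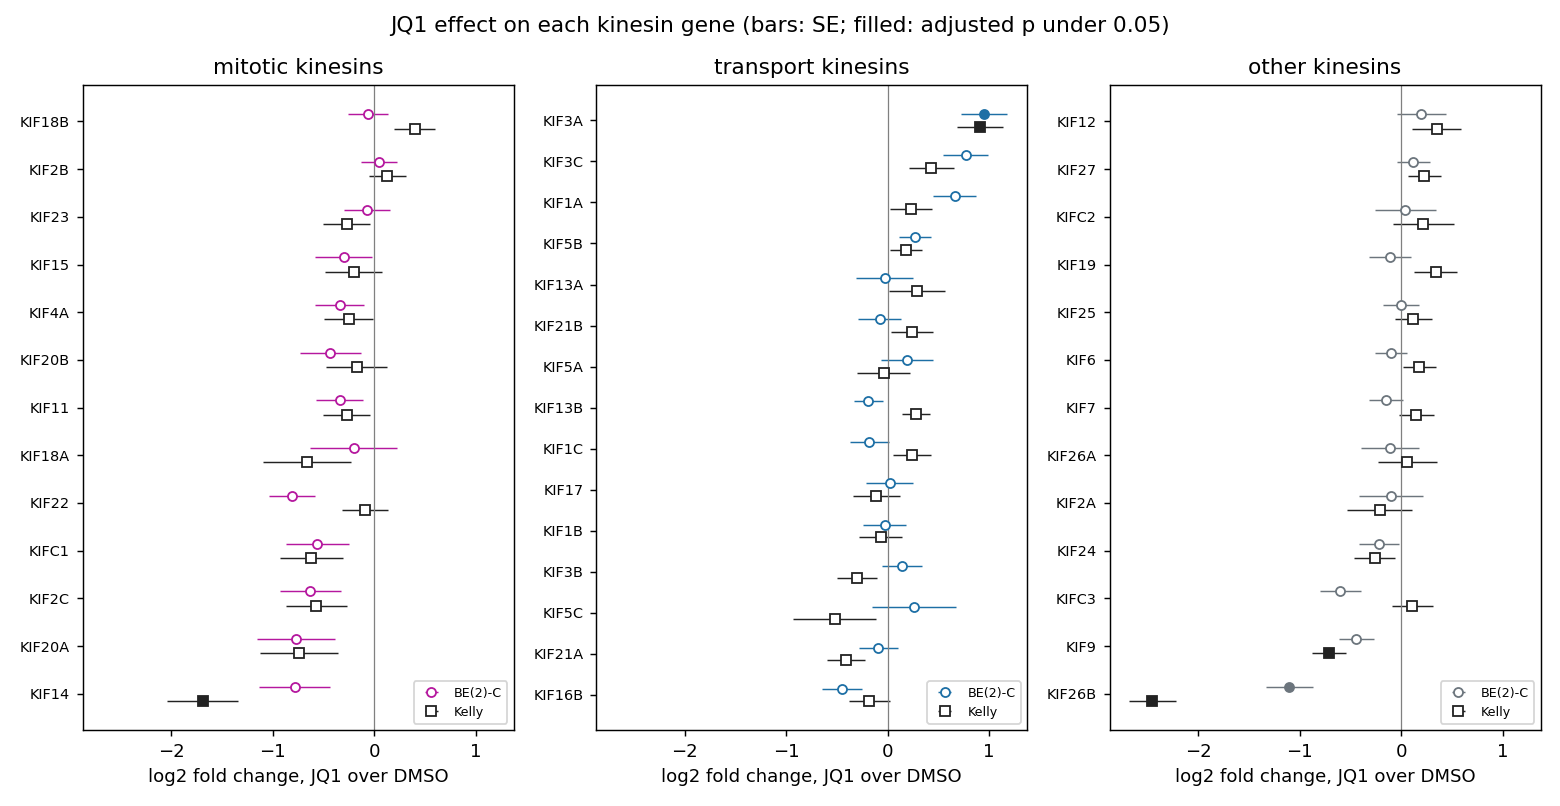
Log2 fold change of each kinesin gene, JQ1 over DMSO, on the horizontal axis, with 1 row per gene in 3 panels by class. Circles stand for BE(2)-C and squares for Kelly, bars are the limma SE, and filled symbols passed an adjusted p of 0.05. Most mitotic kinesins lie left of 0 in both lines (12 of 13 in BE(2)-C and 11 of 13 in Kelly), while the transport kinesins lie on both sides.

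The mitotic kinesins were mostly lower with JQ1, by amounts that largely did not pass the test. BE(2)-C had 12 of 13 log2 fold changes below 0 (92.3%), with a median of -0.34. In Kelly 11 of 13 were below 0 (84.6%), with a median of -0.27. Over all genes 51.6% were below 0 in BE(2)-C and 40.6% in Kelly, with medians of -0.01 and 0.08. The groups did not overlap in 4 mitotic kinesins that were lower in BE(2)-C (KIF14, KIF22, KIF2C and KIFC1) and in 1 in Kelly (KIF14), against 10.7% and 11.6% of all genes. In bulk RNA, fewer dividing cells and less of these transcripts per dividing cell cannot be told apart.

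KIF14, a motor of the midbody that is needed to finish cell division, was the mitotic kinesin that passed. It read 8.68, 8.83 and 8.59 in BE(2)-C JQ1, against 9.07, 9.67 and 9.70 in BE(2)-C DMSO. In Kelly it read 6.45, 7.26 and 6.07 with JQ1, against 7.77, 9.10 and 8.0 with DMSO. All JQ1 arrays lay below all DMSO arrays of the same line, and the same was true in both lines of 4.73% of all genes. The log2 fold change in Kelly was -1.69 (3.24-fold lower, SE 0.35, limma adjusted p = 0.0114). In BE(2)-C it was -0.78 (SE 0.35, limma adjusted p = 0.305), and averaged over the lines KIF14 fell by 1.24 (SE 0.25, limma adjusted p = 0.00581). The difference between the lines, 0.91, did not pass (limma adjusted p = 0.503). A dimmer probe set of KIF14 had log2 fold changes of -0.71 in BE(2)-C and -1.15 in Kelly. The call in Kelly was lost without Kelly JQ1 replicate 3 (-1.43, adjusted p = 0.0551), with the mean of its probe sets (-1.42, adjusted p = 0.0559) and with the arrays of Kelly alone (adjusted p = 0.0570), while the average held under each of its 22 alternatives.

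The other 12 mitotic kinesins did not pass in either line. KIF22, a chromokinesin that pushes chromosome arms outwards, read 8.27, 8.32 and 8.61 in BE(2)-C JQ1, against 9.57, 9.07 and 8.98 in BE(2)-C DMSO, without overlap (log2 fold change -0.81, limma adjusted p = 0.0642). In Kelly its JQ1 values of 8.93, 9.27 and 8.80 overlapped the DMSO values of 9.06, 8.73 and 9.49 (-0.09, limma adjusted p = 0.822). A dimmer KIF22 probe set passed in BE(2)-C when every probe set was tested (-0.77, limma adjusted p = 0.0139). The dimmer KIF22 probe sets differed by -0.73 and -0.14 in Kelly, and neither passed there.

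KIF20A, which brings the chromosomal passenger complex to the central spindle, read 8.94, 9.25 and 9.02 in BE(2)-C JQ1, against 9.12, 10.27 and 10.13 in BE(2)-C DMSO. Kelly arrays gave 9.50, 9.24 and 8.60 with JQ1, against 10.24, 10.38 and 8.95 with DMSO. In each line the 3 JQ1 values lay below 2 DMSO values and overlapped the third, which in each line came from an array with 1 of the 3 highest control signals. The differences were -0.77 in BE(2)-C (limma adjusted p = 0.393) and -0.74 in Kelly (limma adjusted p = 0.270).

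KIF2C, which shortens microtubules at kinetochores, read 8.77, 8.93 and 8.74 in BE(2)-C JQ1, against 9.06, 9.64 and 9.64 in BE(2)-C DMSO. The Kelly values were 10.10, 9.91 and 9.04 with JQ1, against 10.49, 10.59 and 9.69 with DMSO. The groups were apart in BE(2)-C and overlapped in Kelly, with differences of -0.63 (limma adjusted p = 0.343) and -0.57 (limma adjusted p = 0.267). KIFC1, a motor that gathers extra centrosomes into a bipolar spindle, differed by -0.56 in BE(2)-C (limma adjusted p = 0.486) and by -0.62 in Kelly (limma adjusted p = 0.260). Its BE(2)-C groups also did not overlap.

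The remaining members did not pass either. KIF11, the motor that pushes the spindle poles apart, differed by -0.34 in BE(2)-C and -0.27 in Kelly, and KIF15, which shares that task, by -0.30 and -0.20. KIF18A, which damps the movement of chromosomes, differed by -0.20 in BE(2)-C and -0.66 in Kelly, and KIF4A, a chromokinesin, by -0.34 and -0.25. KIF23, of the centralspindlin complex, differed by -0.07 in BE(2)-C and -0.27 in Kelly, and KIF20B, a motor of cytokinesis, by -0.43 and -0.17. KIF18B, which acts on astral microtubules, was at -0.06 in BE(2)-C and 0.40 in Kelly. KIF2B had group means of 4.13 to 4.28, in the range of the background control probes, whose array medians were 3.91 to 4.55.

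Within groups the mitotic class median varied between arrays. The class median in BE(2)-C was 8.30, 8.57 and 8.59 with JQ1, against 8.81, 8.91 and 8.98 with DMSO, and the groups did not overlap. This median is taken over genes of different levels, so a different gene can stand in the middle of each array. Gene by gene, the BE(2)-C groups were apart in 4 of the 13. KIF15 (7.14) and KIF18A (6.71) in BE(2)-C DMSO replicate 1 lay below all JQ1 arrays of that line. In Kelly the class median was 8.85, 8.61 and 7.87 with JQ1, against 9.02, 8.96 and 8.30 with DMSO. Replicate 3 was lowest in both Kelly groups, and these are the arrays with control signals of 13.65 and 13.26. They also had the largest gap between the 3′ and 5′ probe sets of ACTB, a sign of RNA quality, at 2.24 with JQ1 and 2.22 with DMSO on the log2 scale, against 0.63 to 1.65 in the other 10 arrays. In BE(2)-C, DMSO replicate 1, with a control signal of 12.92, had the lowest mitotic median of its group (8.81). JQ1 replicate 3, with 12.70, had the highest of its group (8.59). Yet in that JQ1 array KIF11, KIF14, KIF15, KIF18A, KIF20B, KIF23, KIF2C and KIFC1 read lowest of their group, and KIF18B, KIF22 and KIF2B highest. In 8 of 13 mitotic kinesins the JQ1 value was lower in all 3 same-numbered Kelly pairs, as it was in 22.2% of all genes.

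The number of mitotic kinesins called depended on how these arrays were treated. In the average of the lines, 1 mitotic kinesin passed of the 13, and with the replicate number of each line as a block 4 fell (KIF14, KIF20A, KIF2C and KIFC1). That block raised the average count over all kinesins to 8 of 41, with 6 lower and 2 higher, against 11.6% of all genes under the block. With the 3 arrays of highest control signal left out, a choice made after the data had been seen, 5 mitotic kinesins fell in BE(2)-C (KIF20A, KIF22, KIF2C, KIF4A and KIFC1) and 4 in Kelly (KIF14, KIF20A, KIF2C and KIFC1), with 6 in the average. With the control signal as a covariate instead, KIF22 fell in BE(2)-C, KIF14 in Kelly and 4 in the average (KIF14, KIF20A, KIF22 and KIF2C), and the class median was -0.29 in BE(2)-C and -0.10 in Kelly. The share of all genes called was also higher: without the 3 arrays it was 14.1% in BE(2)-C, 24.8% in Kelly and 32.1% in the average, and with the covariate 15.2%, 12.6% and 20.3%. With all arrays, 0 mitotic kinesins passed in BE(2)-C in limma, and 2 were lower at an unadjusted p below 0.05. The part of RNA quality in these results was not tested.

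**Figure D2:**
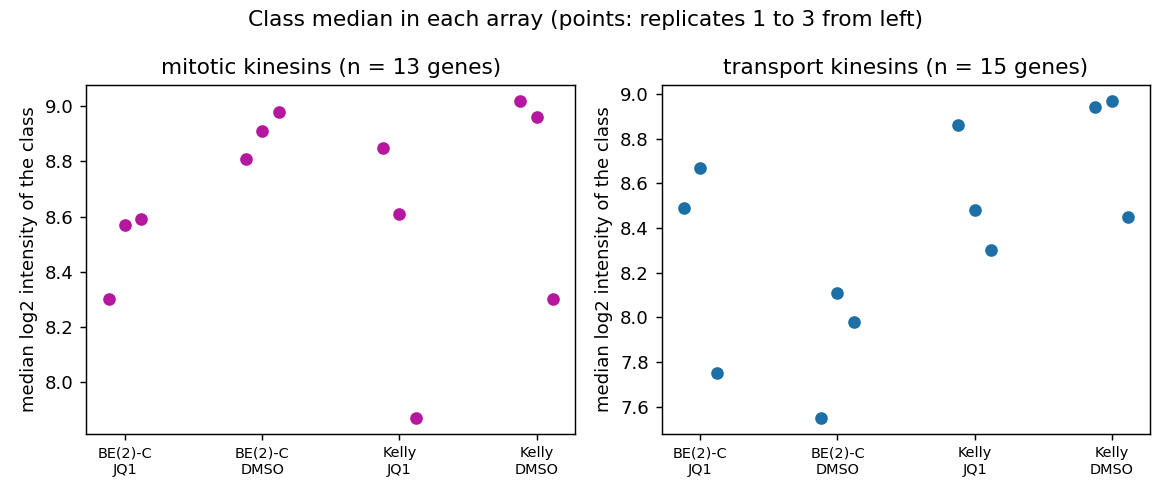
Median log2 intensity over the genes of a class in each array, on the vertical axis, for the 4 groups, with replicates 1 to 3 from left to right in a group. The mitotic medians of BE(2)-C JQ1 (8.30 to 8.59) all lie below those of BE(2)-C DMSO (8.81 to 8.98), the Kelly groups overlap, and the transport medians overlap in both lines. Gene by gene, the BE(2)-C groups were apart in only 4 of 13 mitotic kinesins.

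Promoter windows were searched because most members of the mitotic class differed in the same direction. Cell cycle genes of the G2 and M phases are known to carry cell cycle homology hexamers, bound by a complex that contains LIN9, and CCAAT boxes, bound by NF-Y. The RefSeq windows of GRCh38.p14, 250 bases before to 50 after a start, were searched on both strands for TTTGAA or TTTAAA (the hexamers) and for CCAAT. A hexamer was found in 11 of 13 mitotic kinesin genes (84.6%), in 2 of 12 transport kinesin genes (16.7%) and in 27.9% of all 27305 genes. CCAAT was found in 10 of 13 mitotic kinesin genes (76.9%), 4 of 12 transport kinesin genes (33.3%) and 39.7% of all genes. The mitotic genes without a hexamer match were KIF22 and KIF2B. Of these KIF22 was also below 0 in both lines (-0.81 in BE(2)-C and -0.09 in Kelly). To show where the matches lie, windows are printed for 4 mitotic kinesins with a hexamer and a JQ1 difference below 0 in both lines. They are those of KIF14 (chr1:200620702-200621001, minus strand), KIF20A (chr5:138178862-138179161, plus strand), KIF2C (chr1:44739587-44739886, plus strand) and KIF11 (chr10:92592880-92593179, plus strand), each written 5′ to 3′ on the strand of the gene. Capitals mark the hexamers and CCAAT, as written or as their reverse complements.
KIF14: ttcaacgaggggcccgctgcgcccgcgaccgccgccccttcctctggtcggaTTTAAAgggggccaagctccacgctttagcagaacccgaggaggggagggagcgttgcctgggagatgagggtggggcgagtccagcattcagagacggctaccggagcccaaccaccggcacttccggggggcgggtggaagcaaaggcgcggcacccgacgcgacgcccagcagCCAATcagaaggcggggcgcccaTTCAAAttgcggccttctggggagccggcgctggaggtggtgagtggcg
KIF20A: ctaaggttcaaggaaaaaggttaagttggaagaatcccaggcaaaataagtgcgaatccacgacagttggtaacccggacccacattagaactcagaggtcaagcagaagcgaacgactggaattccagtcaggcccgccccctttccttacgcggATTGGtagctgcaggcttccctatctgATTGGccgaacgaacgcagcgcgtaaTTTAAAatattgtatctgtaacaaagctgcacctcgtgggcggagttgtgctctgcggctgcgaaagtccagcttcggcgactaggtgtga
KIF2C: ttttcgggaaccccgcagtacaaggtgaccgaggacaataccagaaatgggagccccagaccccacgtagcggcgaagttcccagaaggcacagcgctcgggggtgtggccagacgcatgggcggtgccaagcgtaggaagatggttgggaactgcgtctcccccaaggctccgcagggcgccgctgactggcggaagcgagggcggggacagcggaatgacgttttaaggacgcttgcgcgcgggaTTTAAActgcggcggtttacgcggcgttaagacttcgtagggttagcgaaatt
KIF11: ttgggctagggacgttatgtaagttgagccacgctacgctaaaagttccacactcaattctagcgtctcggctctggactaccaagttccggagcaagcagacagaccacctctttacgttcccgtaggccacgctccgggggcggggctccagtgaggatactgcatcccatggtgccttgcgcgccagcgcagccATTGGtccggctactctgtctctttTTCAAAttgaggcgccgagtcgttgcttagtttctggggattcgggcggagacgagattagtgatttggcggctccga
In KIF14 and KIF11 a CCAAT match is followed by a hexamer, at bases 229 and 252 in KIF14 and 198 and 223 in KIF11. KIF20A has CCAAT matches at bases 157 and 184 and a hexamer at 210. KIF2C has a hexamer at base 248 and no CCAAT. These are matches of short letters, not measured binding. A link between the matches and the JQ1 differences was not tested.

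**Figure D3:**
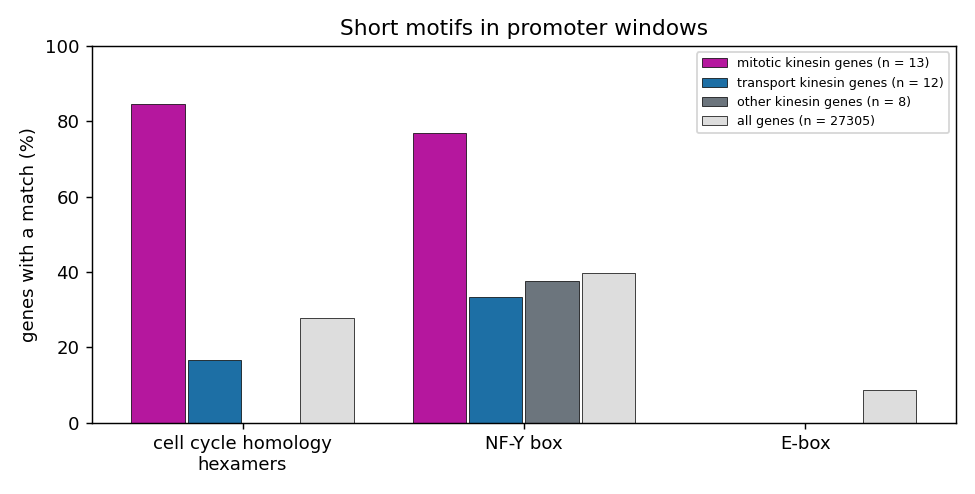
Share of genes (%, vertical axis) with at least 1 match in a promoter window, for cell cycle homology hexamers, the NF-Y box and the E-box, in mitotic, transport and other kinesin genes and in all 27305 genes with a window. The mitotic bars for the first and second motif (84.6% and 76.9%) are above those of all genes (27.9% and 39.7%), and no kinesin gene has a match to the E-box, which 8.77% of all genes have.

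The E-box searched was CACGTG, the letters bound by MYC family proteins. It was found in 0 of the 33 kinesin genes with a window, against 8.77% of all genes. That says only that these letters are absent from these windows.

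Among the transport kinesins, KIF3A was the member that passed within a line. Of 15 genes 7 were below 0 in BE(2)-C, with a median of 0.02, and 7 in Kelly, with a median of 0.18. All JQ1 arrays lay above all DMSO arrays for 5 of them in BE(2)-C and 2 in Kelly, against 11.5% and 12.1% of all genes. They lay below for 2 in BE(2)-C (KIF13B and KIF1C) and 1 in Kelly (KIF21A), against 10.7% and 11.6%. In 5 of the 15 the JQ1 value was higher in all 3 same-numbered Kelly pairs and in 2 it was lower, against 31.0% and 22.2% of all genes. KIF3A is a motor subunit of heterotrimeric kinesin-2, which carries cargo along axons and builds cilia. It read 10.20, 9.88 and 9.89 in BE(2)-C JQ1, against 9.40, 8.73 and 9.0 in BE(2)-C DMSO. In Kelly it read 10.55, 10.59 and 10.73 with JQ1, against 9.41, 9.49 and 10.25 with DMSO. Every JQ1 array lay above every DMSO array of its line, which held in both lines for 2.80% of all genes.

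KIF3A rose by 0.95 in BE(2)-C (1.93-fold, SE 0.23, limma adjusted p = 0.0380) and by 0.91 in Kelly (1.87-fold, SE 0.23, limma adjusted p = 0.0370). Averaged over the lines it rose by 0.93 (SE 0.17, limma adjusted p = 0.00280), and that call held under each of its 22 alternatives. The calls within a line lay close to the threshold. In BE(2)-C the call was lost without replicate 1, 2 or 3 of BE(2)-C JQ1 (adjusted p = 0.177, 0.0980 and 0.0872) and without replicate 2 or 3 of BE(2)-C DMSO (0.169 and 0.104), and also without Kelly JQ1 replicate 1 or 2 (0.0548 and 0.0588). In Kelly it was lost without replicate 1, 2 or 3 of Kelly JQ1 (adjusted p = 0.0659, 0.0936 and 0.110), without replicate 1 or 2 of Kelly DMSO (0.170 and 0.148), and without replicate 1, 2 or 3 of BE(2)-C JQ1 or replicate 3 of BE(2)-C DMSO (0.0546, 0.0562, 0.0534 and 0.0505). Other settings ended these calls too. In BE(2)-C they were every probe set as a test (adjusted p = 0.0557), the removal of probe sets with an s or x suffix (0.0928) and quantile normalization (0.0961). For Kelly they were the same 3 (0.0511, 0.150 and 0.0550), the mean of the probe sets (0.55, adjusted p = 0.155) and the arrays of Kelly alone (0.1). The dimmer probe sets of KIF3A differed by 0.94 and 1.06 in BE(2)-C, and by 0.75 and -0.02 in Kelly.

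KIF3C, which pairs with KIF3A in a neuronal form of kinesin-2, rose in the average of the lines. It read 8.83, 8.86 and 8.72 in BE(2)-C JQ1, against 7.59, 8.31 and 8.18 in BE(2)-C DMSO, without overlap. In Kelly it read 9.49, 9.42 and 8.87 with JQ1, against 8.94, 8.97 and 8.59 with DMSO, where 1 JQ1 array lay among the DMSO arrays. The differences were 0.77 in BE(2)-C (limma adjusted p = 0.0681), 0.43 in Kelly (limma adjusted p = 0.265) and 0.60 in the average (1.52-fold, SE 0.15, limma adjusted p = 0.0245). The average was lost without replicate 1 or 2 of Kelly JQ1 (adjusted p = 0.0616 and 0.0656), without replicate 1 or 2 of BE(2)-C JQ1 (0.0637 and 0.0599), and with the mean of the KIF3C probe sets (0.16, adjusted p = 0.443). The dimmer probe sets of KIF3C differed by -0.01 and 0.04 in BE(2)-C and by -0.54 and 0.26 in Kelly. The promoter windows of KIF3A (chr5:132737497-132737796, minus strand) and KIF3C (chr2:25982448-25982747, minus strand), the transport kinesins that rose, are printed as well. Neither holds a hexamer or CCAAT, so neither has capitals. Most transport kinesin genes hold no hexamer: it was found in 2 of 12, KIF16B and KIF5B, which did not pass for JQ1.
KIF3A: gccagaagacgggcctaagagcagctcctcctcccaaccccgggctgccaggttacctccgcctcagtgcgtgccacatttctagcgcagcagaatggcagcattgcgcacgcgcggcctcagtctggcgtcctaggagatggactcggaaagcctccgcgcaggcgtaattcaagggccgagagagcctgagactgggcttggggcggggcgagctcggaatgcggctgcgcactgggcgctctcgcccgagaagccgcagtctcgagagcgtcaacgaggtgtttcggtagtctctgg
KIF3C: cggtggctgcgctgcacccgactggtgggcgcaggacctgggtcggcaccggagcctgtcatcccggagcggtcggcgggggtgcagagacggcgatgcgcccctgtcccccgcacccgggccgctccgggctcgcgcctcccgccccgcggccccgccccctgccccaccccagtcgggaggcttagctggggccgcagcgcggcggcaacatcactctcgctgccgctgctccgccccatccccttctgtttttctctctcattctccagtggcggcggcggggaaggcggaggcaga

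KIF3B, the usual partner of KIF3A, did not pass. It read 9.34, 9.54 and 9.38 in BE(2)-C JQ1, against 9.22, 9.33 and 9.29 in BE(2)-C DMSO, a difference of 0.14 (limma adjusted p = 0.991) with no overlap. In Kelly it differed by -0.30 (limma adjusted p = 0.376). A test of KIF3A against KIF3B was not made.

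Among the motors of axonal vesicles and mitochondria, KIF1A, which carries synaptic and dense core vesicles, read 8.87, 8.67 and 9.08 in BE(2)-C JQ1, against 8.55, 8.11 and 7.98 in BE(2)-C DMSO. The BE(2)-C groups did not overlap, but the difference of 0.66 did not pass (limma adjusted p = 0.112). In Kelly KIF1A read 11.07, 11.37 and 10.63 with JQ1, against 10.84, 10.63 and 10.93 with DMSO, which overlap (0.23, limma adjusted p = 0.531). The dimmer probe sets of KIF1A differed by 0.38, 0.01, 0.18 and 0.17 in BE(2)-C. In Kelly they differed by -0.22, 0.10, 0.66 and 0.50, and none passed in either line. KIF1B, a mitochondrial and vesicle motor, differed by -0.03 in BE(2)-C and -0.07 in Kelly in its brightest probe set. Its dimmer probe sets, from bright to dim, gave -0.13, 0.54, 0.41, -0.19 and 0.44 in BE(2)-C. In Kelly they gave 0.06, -0.41, -0.43, -0.01 and -0.47, and none passed in either line.

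The kinesin-1 heavy chains, the general motors of fast outward transport, did not pass either. KIF5B, found in most cells, differed by 0.27 in BE(2)-C and 0.18 in Kelly. The neuronal KIF5A differed by 0.19 in BE(2)-C and -0.04 in Kelly, and the neuronal KIF5C by 0.26 and -0.52. KIF13B had groups that did not overlap in either line but in opposite directions, at -0.19 in BE(2)-C and 0.28 in Kelly, and the difference between the lines of -0.47 did not pass (limma adjusted p = 0.409). KIF16B, an endosome motor, was at -0.45 in BE(2)-C and -0.18 in Kelly, and KIF21A at -0.09 and -0.41. The remaining members of the class, KIF1C, KIF13A, KIF17 and KIF21B, lay between -0.18 and 0.29 in both lines.

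**Figure D4:**
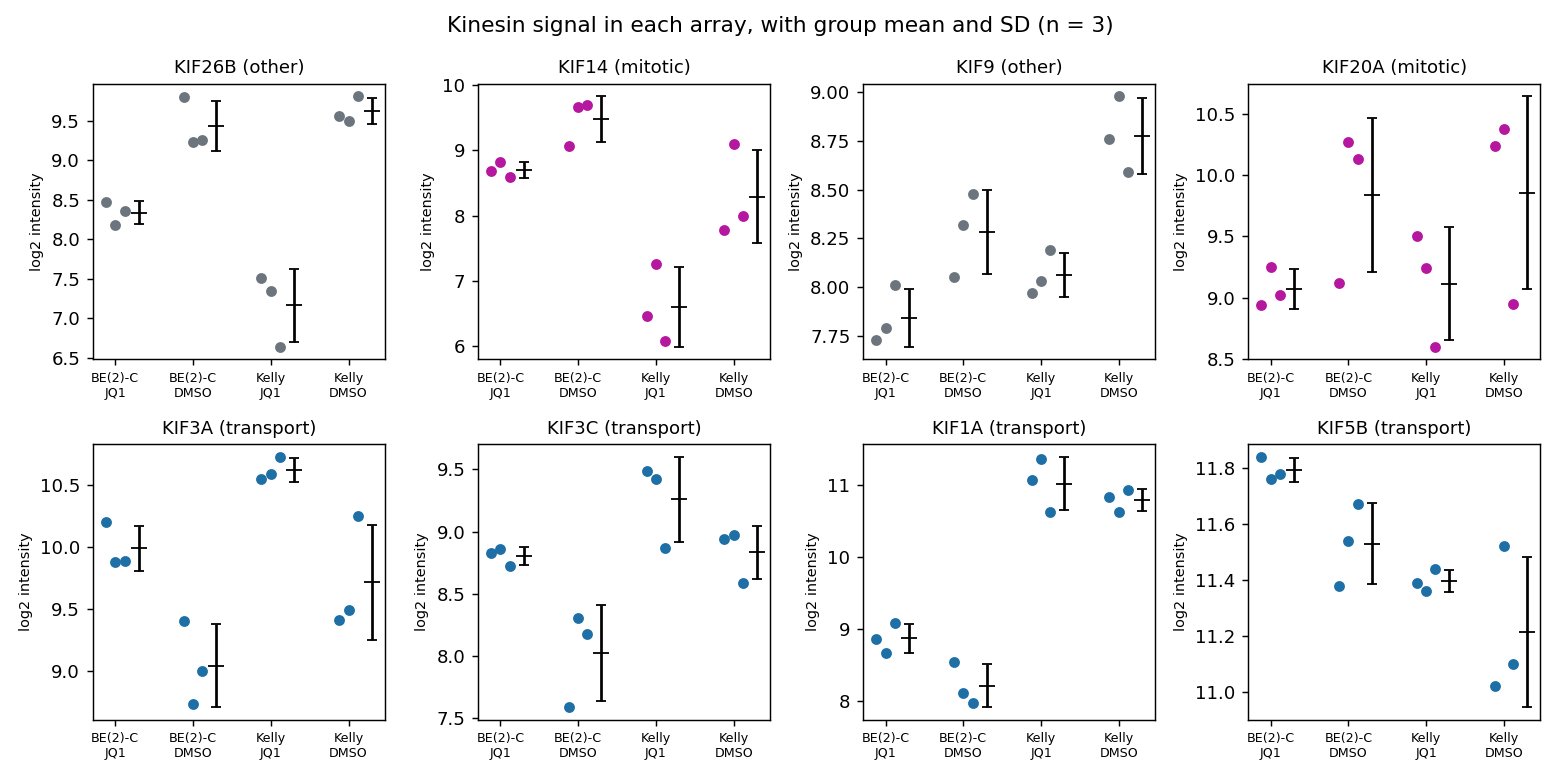
Log2 intensity (vertical axis, own scale per gene) of 8 kinesin genes in each array, with the group mean and SD beside the 3 points, for BE(2)-C JQ1, BE(2)-C DMSO, Kelly JQ1 and Kelly DMSO. KIF26B, KIF14 and KIF9 are lower with JQ1 and KIF3A is higher in every array of both lines, while KIF20A and KIF5B overlap in at least 1 line.

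The largest JQ1 change among the kinesins was that of KIF26B, an atypical kinesin known from WNT5A-ROR signalling and, in mice, from kidney development. It read 8.47, 8.18 and 8.36 in BE(2)-C JQ1, against 9.80, 9.23 and 9.26 in BE(2)-C DMSO. In Kelly it read 7.51, 7.34 and 6.64 with JQ1, against 9.56, 9.49 and 9.81 with DMSO. The groups were apart in both lines. KIF26B fell by 1.10 in BE(2)-C (2.14-fold lower, SE 0.23, limma adjusted p = 0.0172) and by 2.45 in Kelly (5.48-fold lower, SE 0.23, limma adjusted p = 6.48e-05).

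The Kelly call of KIF26B held under each of its 23 alternatives, but its size was -0.71 with the mean of its probe sets (adjusted p = 0.0292). The BE(2)-C call was lost without replicate 1, 2 or 3 of BE(2)-C JQ1 (adjusted p = 0.0551, 0.0855 and 0.0575), without BE(2)-C DMSO replicate 1 (0.0503) and with the mean of its probe sets (-0.57, adjusted p = 0.0882). The difference between the lines of 1.36 did not pass (limma adjusted p = 0.116), but passed with the control signal as a covariate (1.42, adjusted p = 0.0209) and without the 3 arrays of highest control signal (1.19, adjusted p = 0.0103). With all arrays and no covariate, 0 of 41 kinesins passed in limma for a difference between the lines, against 0.557% of all genes (0.116% lower and 0.441% higher), and 4 had an unadjusted p below 0.05. The dimmer probe sets of KIF26B gave -0.57, -0.61 and 0.00 in BE(2)-C and -0.56, -0.24 and 0.42 in Kelly, all smaller in size than that of the brightest one.

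KIF9, known from the flagella of sperm and other motile cilia in mice, read 7.73, 7.79 and 8.01 in BE(2)-C JQ1, against 8.05, 8.32 and 8.48 in BE(2)-C DMSO. In the Kelly line KIF9 read 7.97, 8.03 and 8.19 with JQ1, against 8.76, 8.98 and 8.59 with DMSO. The groups did not overlap in either line. It fell by 0.71 in Kelly (1.64-fold lower, SE 0.17, limma adjusted p = 0.0220) and by 0.58 in the average (SE 0.12, limma adjusted p = 0.00649). In BE(2)-C it was at -0.44 (limma adjusted p = 0.190). The Kelly call was lost without replicate 1 or 2 of Kelly JQ1 (adjusted p = 0.0639 and 0.0721) and without replicate 1 or 2 of Kelly DMSO (0.0813 and 0.103), with quantile normalization (-0.47, adjusted p = 0.118) and with the arrays of Kelly alone (0.0901). The dimmer probe sets of KIF9 gave -0.05 and 0.06 in BE(2)-C and 0.32 and 0.50 in Kelly, and with the mean of its probe sets the Kelly value was 0.04 and the average -0.05 (adjusted p = 0.757), so neither call held there.

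No other member of the mixed class passed for JQ1. KIFC3, a minus-end motor of adherens junctions and centrosomes, read 7.09, 6.99 and 7.17 in BE(2)-C JQ1, against 8.02, 7.71 and 7.32 in BE(2)-C DMSO, without overlap (-0.60, limma adjusted p = 0.120). In Kelly it was at 0.11. KIF2A, a microtubule-shortening motor of neurons and spindles, differed by -0.10 in BE(2)-C and -0.21 in Kelly, and KIF7, which acts in Hedgehog signalling at the tip of the cilium, by -0.15 and 0.15. The remaining 8 genes lay between -0.22 and 0.20 in BE(2)-C and between -0.26 and 0.35 in Kelly, and KIF27, with group means of 4.04 to 4.48, lay near the background control probes.

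**Figure D5:**
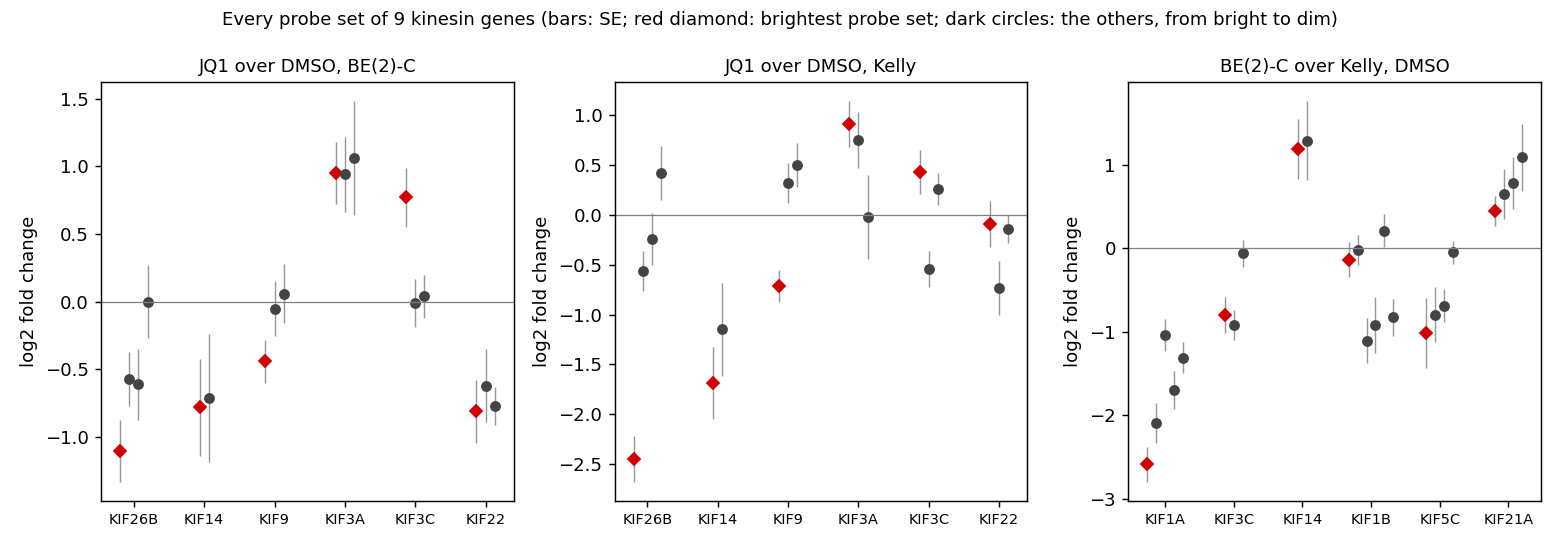
Log2 fold change (vertical axis) of every probe set of selected kinesin genes for JQ1 over DMSO in BE(2)-C, JQ1 over DMSO in Kelly, and BE(2)-C over Kelly under DMSO, with limma SE bars. Both JQ1 panels show KIF26B, KIF14, KIF9, KIF3A, KIF3C and KIF22. The panel between the lines shows KIF1A, KIF3C, KIF14, KIF1B, KIF5C and KIF21A. Diamonds are the brightest probe sets and circles the dimmer ones. In Kelly the KIF26B probe sets range from -2.45 to 0.42 and those of KIF9 from -0.71 to 0.50, whereas all 5 KIF1A probe sets lie below 0 between the lines.

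The lines themselves differed in kinesins under DMSO, with KIF1A far lower in BE(2)-C. In BE(2)-C over Kelly, 4 kinesins were higher and 3 lower of 41, against 15.1% of all genes called (7.20% higher and 7.89% lower). The groups did not overlap in 5 higher and 6 lower kinesins, against 12.1% and 13.6% of all genes. KIF1A read 8.55, 8.11 and 7.98 in BE(2)-C, against 10.84, 10.63 and 10.93 in Kelly, more than 2 log2 units apart without overlap. The log2 fold change was -2.59 (6.0-fold lower in BE(2)-C, SE 0.21, limma adjusted p = 3.02e-06), and it held under each of its 21 alternatives. All 5 KIF1A probe sets were lower in BE(2)-C, from -2.59 to -1.04. The gap between the 3′ and 5′ probe sets of ACTB was 1.24, 0.63 and 0.87 in BE(2)-C DMSO. In Kelly DMSO it was 1.24, 1.55 and 2.22. The part of RNA quality in the differences between the lines was not tested.

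Of the 15 transport kinesins, 9 were lower in BE(2)-C (60%), as were 55.5% of all genes. KIF3C differed by -0.80 (limma adjusted p = 0.0244), with DMSO values of 7.59, 8.31 and 8.18 in BE(2)-C, against 8.94, 8.97 and 8.59 in Kelly. Its call was lost without Kelly DMSO replicate 1 or 2 (adjusted p = 0.0936 and 0.0791) or BE(2)-C DMSO replicate 1 (0.0800). KIF5A read 7.55, 6.83 and 6.75 in BE(2)-C, against 7.64, 7.51 and 8.30 in Kelly, overlapping by 1 array (-0.78, limma adjusted p = 0.0660). KIF21A, known from the control of axon growth in eye movement nerves, was higher in BE(2)-C in all 4 probe sets, from 0.45 to 1.09, and none passed.

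KIF5C read 7.06, 8.59 and 8.59 in BE(2)-C, against 9.29, 9.57 and 8.45 in Kelly, which overlap (-1.02, limma adjusted p = 0.134). The low value of each group came from an array of high control signal. When every probe set was tested, a dimmer KIF5C probe set passed (-0.69, limma adjusted p = 0.0373) and those at -0.80 and -0.05 did not. Dimmer probe sets also passed for KIF1B (-1.11 and -0.83, limma adjusted p = 0.0172 and 0.0266) and KIF21B (-1.16, limma adjusted p = 0.0224). The brightest probe sets of KIF1B and KIF21B, at -0.14 and 0.08, did not pass. KIF13B was higher in BE(2)-C at 7.53, 7.41 and 7.61, against 7.25, 7.08 and 6.87 in Kelly (0.45, limma adjusted p = 0.0497). That call sat at the threshold: it was lost when any 1 array other than Kelly JQ1 replicate 3 was left out, with adjusted p-values over all its alternatives from 0.0190 to 0.393.

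In the mitotic class KIF14 and KIF20B were higher in BE(2)-C. KIF14 read 9.07, 9.67 and 9.70 in BE(2)-C DMSO, against 7.77, 9.10 and 8.0 in Kelly DMSO (1.19, 2.29-fold, SE 0.35, limma adjusted p = 0.0360), with 1 Kelly array (9.10) above the lowest BE(2)-C array (9.07). Its call was lost without Kelly DMSO replicate 1 or 3 (adjusted p = 0.161 and 0.108), BE(2)-C DMSO replicate 2 or 3 (0.126 and 0.121) and BE(2)-C JQ1 replicate 1 or 3 (0.0547 and 0.0515). KIF20B read 6.79, 7.63 and 7.40 in BE(2)-C, against 5.83, 6.66 and 6.03 in Kelly, without overlap (1.11, SE 0.30, limma adjusted p = 0.0258). Leaving out Kelly DMSO replicate 1 or 3 ended that call (0.116 and 0.0704), as did leaving out BE(2)-C DMSO replicate 2 or 3 (0.120 and 0.0851).

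KIF2C and KIF15 had lower values in BE(2)-C that did not pass with the main settings. KIF2C read 9.06, 9.64 and 9.64 in BE(2)-C, against 10.49, 10.59 and 9.69 in Kelly, with the nearest arrays almost touching (-0.81, limma adjusted p = 0.0934). KIF15 read 7.14, 7.80 and 8.15 in BE(2)-C, against 7.88, 8.59 and 7.74 in Kelly, which overlap (-0.37, limma adjusted p = 0.550). With the control signal as a covariate both passed. KIF2C also passed with quantile normalization, without the 3 arrays of highest control signal, and without replicate 3 of Kelly JQ1 or of Kelly DMSO. The mitotic class as a whole had a median difference between the lines of -0.01. That median was -0.18 without Kelly DMSO replicate 3 and 0.10 without Kelly DMSO replicate 1.

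In the mixed class KIF26A, a relative of KIF26B that in mice is needed for the enteric nervous system, read 12.32, 11.58 and 11.68 in BE(2)-C, against 10.47, 10.22 and 11.45 in Kelly. The groups were apart by a narrow margin, from Kelly DMSO replicate 3 (1.15, 2.22-fold, SE 0.29, limma adjusted p = 0.0172). The call was lost without Kelly DMSO replicate 1 or 2 (adjusted p = 0.0772 and 0.0715) and BE(2)-C DMSO replicate 1 (0.0573). KIF7 read 7.30, 6.89 and 6.87 in BE(2)-C, against 7.77, 7.78 and 7.76 in Kelly, with very little spread in Kelly (-0.75, 1.68-fold lower, SE 0.17, limma adjusted p = 0.00873). That call held under each of its 21 alternatives.

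KIF9 and KIFC3 did not pass between the lines. KIF9 was at 8.05, 8.32 and 8.48 in BE(2)-C DMSO, against 8.76, 8.98 and 8.59 in Kelly DMSO, without overlap (-0.50, limma adjusted p = 0.0655). KIFC3 was at 8.02, 7.71 and 7.32 in BE(2)-C, against 7.42, 7.0 and 7.41 in Kelly, with 1 BE(2)-C array among the Kelly ones (0.40, limma adjusted p = 0.246).

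Most partners of the mitotic kinesins, like the motors, had log2 fold changes below 0 (23 of 24 in BE(2)-C and 20 in Kelly, against 51.6% and 40.6% of all genes). Of these 24 spindle, kinetochore, cytokinesis and mitotic control genes, 4 fell in BE(2)-C, 1 fell in Kelly and 10 fell in the average of the lines, and 0 rose in any of the 3 comparisons by limma (at an unadjusted p below 0.05, 0 rose in BE(2)-C and 1 in Kelly). Of all genes 2.51% fell in BE(2)-C, 4.73% in Kelly and 7.04% in the average, so the partners' count in Kelly is at the background. Their median log2 fold change was -0.61 in BE(2)-C, -0.44 in Kelly and -0.53 in the average. AURKA, the kinase of the spindle poles, read 10.02, 10.11 and 10.14 in BE(2)-C JQ1, against 10.59, 11.12 and 10.86 in BE(2)-C DMSO. Kelly values were 9.85, 9.95 and 9.67 with JQ1, against 10.81, 10.71 and 10.29 with DMSO. It fell by 0.77 in BE(2)-C (limma adjusted p = 0.0312) and by 0.78 in Kelly (limma adjusted p = 0.0227), with no overlap in either line.

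The other partners that fell in BE(2)-C were TPX2, which activates AURKA (-0.72, limma adjusted p = 0.0261), BIRC5, of the chromosomal passenger complex that KIF20A moves (-0.71, limma adjusted p = 0.0232), and LIN9, a subunit of the complex that binds the hexamers (-0.92, limma adjusted p = 0.0425). LIN9 did not pass in Kelly (-0.48, limma adjusted p = 0.242). LIN54, another listed subunit of that complex, was at -0.11 in BE(2)-C and 0.40 in Kelly, and passed in neither. In the average FOXM1, a transcription factor of G2 and M phase genes, fell by 0.97 (limma adjusted p = 0.0102), and PRC1, the microtubule bundler that KIF4A carries, fell by 0.85 (limma adjusted p = 0.0265). CENPE, a kinetochore kinesin whose symbol does not begin with KIF, was at -0.29 in BE(2)-C and -0.22 in Kelly. CENPE was higher by 2.24 in BE(2)-C than in Kelly under DMSO (limma adjusted p = 0.000192), with HMMR at 1.26 and PRC1 at 1.01.

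Few cargo adaptors, light chains and microtubule proteins of the transport kinesins passed. Of 23 measured genes of 25 listed, 1 fell in BE(2)-C and none passed in Kelly by limma, where 1 was lower at an unadjusted p below 0.05. Of all genes 2.51% fell and 2.18% rose in BE(2)-C, and 4.73% fell and 1.76% rose in Kelly, so these counts are near the background. Their medians were 0.11 in BE(2)-C and 0.04 in Kelly. The gene that fell was MAP2, a microtubule protein of dendrites, at 10.56, 10.37 and 10.04 in BE(2)-C JQ1, against 11.30, 11.22 and 11.24 in BE(2)-C DMSO (-0.93, limma adjusted p = 0.00696). In the average KLC1, a light chain of kinesin-1, rose by 0.49 (limma adjusted p = 0.0331) and MAP1B, a microtubule protein of growing axons, by 0.49 (limma adjusted p = 0.0413).

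Dynein and dynactin, which move cargo the opposite way, had 1 gene of 19 measured that fell in Kelly, DCTN4 (-0.65, limma adjusted p = 0.0483). Of all genes 4.73% fell there. None passed in BE(2)-C by limma, where 4 had an unadjusted p below 0.05, 1 lower and 3 higher. In BE(2)-C 3 of 19 were below 0, against 51.6% of all genes, with a median of 0.25, against -0.01. All JQ1 arrays lay above all DMSO arrays for 10 of them and below for 1, against 11.5% and 10.7% of all genes. In Kelly 9 of 19 were below 0, against 40.6% of all genes. In the average DYNLL2, a dynein light chain, rose by 0.59 (limma adjusted p = 0.0231). Between the lines under DMSO, the dynein light chain DYNLT3 was higher by 3.37 in BE(2)-C (limma adjusted p = 3.08e-06), DYNLRB1 by 0.92 and DYNLT1 by 0.73, while DYNC1LI1 was at -1.07 and DYNC1I2 at -0.59. The effect of leaving out single arrays was computed for the kinesin genes and not for these partner genes.

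Some markers of other cell types moved with JQ1, in both lines. The summed linear signal of the 6 Schwann cell and fibroblast markers was 348 to 357 in BE(2)-C JQ1, against 515 to 612 in BE(2)-C DMSO, and 299 to 319 in Kelly JQ1, against 276 to 376 in Kelly DMSO. Of these 6, 2 fell in BE(2)-C and 1 in Kelly, against 2.51% and 4.73% of all genes. The 5 epithelial markers summed to 263 to 331 in BE(2)-C JQ1, against 389 to 581 in BE(2)-C DMSO. In Kelly they summed to 283 to 520 with JQ1, against 259 to 426 with DMSO. Of these 5, 1 fell in each line, against the same shares of all genes. It was KRT19 in both (-1.30 in BE(2)-C, limma adjusted p = 0.00287, and -1.37 in Kelly, limma adjusted p = 0.0013). In BE(2)-C EPCAM was at 0.63 without passing (limma adjusted p = 0.112), and KRT8, KRT18 and CDH1 were at -0.11, -0.02 and -0.02. The 9 neuroblastoma markers summed to 46200 to 49000 in BE(2)-C JQ1, against 35200 to 39400 in BE(2)-C DMSO, a sum led by CHGA, which rose by 0.63 (limma adjusted p = 0.0235). Of these 9, 2 fell and 3 rose in BE(2)-C, against 2.51% and 2.18% of all genes, and 2 fell in Kelly, against 4.73%. TH and DBH, enzymes of catecholamine synthesis, were those that fell in BE(2)-C (-1.48, limma adjusted p = 0.00147, and -1.60, limma adjusted p = 0.00289). The part of these markers in the kinesin results was not tested.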

How the data were processed

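RNA of 12 samples, 4 groups of 3, was profiled on Affymetrix PrimeView arrays. The deposited values are linear intensity, made by the authors with RMA (background correction, normalization between arrays and probe summary), per the submitters' processing notes, which give no version. Because log2 input had been planned, log2 was taken of each deposited intensity with no offset; array medians were 61.4 to 67.3. Of 49395 probe sets, 102 were controls, 44988 named 1 gene, 1832 several and 2473 none. Symbols were updated through a gene table of GRCh38.p14; 99.9% of those naming 1 gene matched, and a gene was read from its brightest probe set.

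All 18132 genes were fitted with limma 3.58.1 in R 4.3.3 as 4 group means, after the code had been tested on simulated data. Two-sided p-values were adjusted over all genes by Benjamini-Hochberg, with a threshold of 0.05. No gene was filtered out. JQ1 was compared with DMSO within each line, as an average and as a difference of the lines, and BE(2)-C with Kelly under DMSO. The JQ1 effect within BE(2)-C or Kelly shares its DMSO arrays with the last contrast.

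The members, classes and gene lists (mitotic partners, transport partners, dynein and dynactin, and markers of neuroblastoma, haematopoietic, epithelial and Schwann or fibroblast cells) were chosen with earlier results of these data known. Per-array values are given for members that passed for JQ1 and for the 4 of each class with the largest difference between the lines. Those of KIF22, KIF20A, KIF3B, KIF13B, AURKA and MAP2 were added after their values were seen. In Kelly the residuals of same-numbered DMSO and JQ1 arrays correlated at 0.434, 0.228 and 0.515, and those of different-numbered arrays at -0.559 to 0.463. The 0.463, of JQ1 replicate 1 with DMSO replicate 2, exceeds the 0.434 of JQ1 replicate 1 with its own number. In BE(2)-C same-numbered arrays correlated at -0.0706, 0.527 and -0.744, and different-numbered ones at -0.783 to 0.786. The Kelly numbers were taken to pair arrays, but these values do not establish a pairing in either line. The correlations run across genes, not independent replicates. Promoter windows are from RefSeq on GRCh38.p14, and 33 of 41 kinesin genes had one. Alternatives changed the probe set rule, normalization, filter, offset, spread prior, samples, block, control signal covariate and single arrays.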

Additional observations from a re-analysis of the deposited data

How the results depend on the processing

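Of 18 calls on single kinesin genes, 6 held in every alternative run: KIF26B in Kelly, KIF26B, KIF14 and KIF3A in the average, and KIF1A and KIF7 between the lines. With the mean of its probe sets KIF9 in Kelly was 0.04 (adjusted p = 0.866), the single reversed sign. Of 187 pairs of a gene and a comparison without a call, 79 of 4077 alternatives made one, with 0 in the opposite direction. The number of kinesins called in BE(2)-C, 2 with the main settings, was 1 with every probe set tested, 7 with the control signal as covariate (15.2% of all genes called) and 10 without the 3 arrays of highest control signal (14.1%), and 0 to 3 with 1 array left out. In Kelly, against 4, it was 1 with the mean of the probe sets, 1 with the arrays of 1 line, 10 without the 3 arrays (24.8% of all genes), 5 with the covariate (12.6%), and 2 to 5 with 1 array left out. In the average, against 5, it was 8 with the replicate block (11.6% of all genes), 8 with the covariate (20.3%), 14 without the 3 arrays (32.1%), and 4 to 8 with 1 array left out, the highest without Kelly DMSO replicate 3 or BE(2)-C DMSO replicate 1. For the difference, 1 was called with the covariate (3.78% of all genes) and 1 without the 3 arrays (2.52%), against 0. Between the lines, against 7 (3 lower and 4 higher), it was 14 with the covariate (26.5% of all genes, against 15.1%), 11 without the 3 arrays (22.5%) and 2 to 8 with 1 array left out, the lowest without Kelly DMSO replicate 1; with quantile normalization it was 9 (6 lower and 3 higher, 17.1% of all genes). Leaving out the 3 arrays was chosen after the data had been seen. The replicate block called KIF3C in BE(2)-C (0.77, adjusted p = 0.0499), left the Kelly count at 4 and the count for the difference at 0, and was not fitted between the lines, which lie between blocks. Fits on the arrays of 1 line were not run for results over both lines. The cause of these shifts was not tested. Dim genes such as KIF2B and KIF27 lie near background, where a difference is hard to measure on these arrays.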

Other observations

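A probe set that names both KIF4A and KIF4B, and so was read for neither, averaged 8.56 ± 0.149 in BE(2)-C JQ1 and 8.92 ± 0.355 in BE(2)-C DMSO (SD, n = 3 each), a difference of -0.36. In Kelly it averaged 8.47 ± 0.513 with JQ1 and 9.04 ± 0.440 with DMSO (SD, n = 3 each), a difference of -0.58. KIF25-AS1, the antisense RNA set aside from the kinesin genes, differed by 0.04 in BE(2)-C and -0.11 in Kelly for JQ1 over DMSO, and did not pass in either. The labels do not state how the probe sets treat strand, so KIF25 and its antisense RNA are given apart only as the platform names them. A pair of KIF18B probe sets held identical values in every array, as did 108 probe sets naming 1 gene in all, so they count as 1 reading of KIF18B. KIF1B probe sets disagreed between the lines, with values from -1.11 to 0.21.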
